A study of Homo sapiens with 14 samples.

Results

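The 42 genes described here encode subunits of ATP-dependent chromatin remodellers, out of 20007 protein-coding genes of the GENCODE release 44 annotation of hg38. They were chosen by name: 28 are genes of accessory subunits of the BAF (SWI/SNF) complex, and 14 are ATPase genes of the ISWI, CHD and INO80 families, which serve as the group set beside them. For each gene, peaks of chromatin immunoprecipitation followed by sequencing (ChIP-seq) were counted when their midpoint lay in the window, which is the gene body with 20 kb on each side, or at a promoter, which is within 1 kb of any annotated transcript start of the gene. The windows of the 42 genes covered 5.55 Mb and did not overlap each other.

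WIBR3, an established line of human embryonic stem cells (hESCs), was the source of the peaks in 2 states of pluripotency. Naïve cells were converted from primed cells and expanded as a polyclonal population in 5i/L/A, a medium with 5 kinase inhibitors, LIF and activin A, and primed cells were kept in conventional hESC medium with serum, serum replacement and FGF2. Both were grown on inactivated mouse embryonic fibroblasts. The labels give no genetic change in either state, and every result describes this 1 line. The lists were naïve BRG1 (57884 peaks), naïve BAF155 (62338), naïve BRM (17413), naïve SOX2 (1940), primed BRG1 (15611), primed BAF155 (58352) and primed SOX2 (9290). A list of primed BRM held 167 regions, of which 0 lay in a window of the 42 genes. The submitters labelled 2 SOX2 libraries per state, but within a state both lists gave identical coordinates and were counted as 1 sample, so each group had 1 library. No difference between states has a replicate check, and no p-value is given. The peak lists carry no read depth, and none was used here.

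BAF complexes slide and evict nucleosomes with energy from either of the alternative ATPases BRG1 (SMARCA4) and BRM (SMARCA2), around a scaffold that includes BAF155 (SMARCC1). Accessory subunits sort them into canonical BAF (cBAF), the polybromo form (PBAF) and the non-canonical form (ncBAF), and in pluripotent cells BAF occupies many sites bound by OCT4 and SOX2. ISWI remodellers space nucleosomes, CHD remodellers carry chromodomains, and INO80 family remodellers exchange histone variants. Peaks of BRG1, BAF155 and SOX2 near these genes address whether BAF, and its partner SOX2, sit at the genes that encode the complex itself and at those of other remodellers. The peak lists measure occupancy only, and no expression value was analysed here.

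The labelled states were checked at marker genes. All 5 naïve markers (KLF17, KLF4, TFCP2L1, DPPA5 and SUSD2) had more BAF regions of the naïve state only than of the primed state only, from 5 against 2 at KLF4 to 8 against 0 at DPPA5. Of the 5 primed markers, ZIC2, SFRP2, SOX11 and DUSP6 had more primed-only regions, from 1 against 0 at SFRP2 to 5 against 1 at ZIC2, and CD24 had 1 of each. Markers of both states also had more naïve-only regions: POU5F1 (3 against 0), NANOG (7 against 2), SALL4 (4 against 0) and LIN28B (5 against 3). Of all protein-coding genes, 56% had more naïve-only and 21.9% more primed-only regions. A naïve-only excess at a marker is therefore a weak check of the label. A BAF region here is a merged stretch of BRG1 and BAF155 peaks of a state, and it is called common where a region of the other state overlaps it by at least 25% of either.

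All 42 genes carried BAF at a promoter in both states. A BRG1 or BAF155 promoter peak was present in naïve cells at 42 of 42 genes (71.9% of all protein-coding genes), in primed cells at 42 of 42 (72.1% of all), and in both at 42 of 42 (65.5% of all). The exact 95% binomial interval for 42 of 42 is 91.6 to 100%, and such intervals cover counting error only. All 42 also had a common BAF region at a promoter, against 63% of all genes. The BAF subunit genes (28 of 28) and the other remodeller genes (14 of 14) were alike in this. Of 40 partner genes, which encode other subunits of the NuRD, ISWI and INO80 family complexes, 38 had a BAF promoter peak in both states.

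The remodeller genes have a median of 13 transcript starts, against 5 for all genes, which gives them more chances of a promoter peak. With only the start of the main transcript, 42 of 42 still had a BAF promoter peak in both states, against 60% of all genes.

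**Figure D1:**
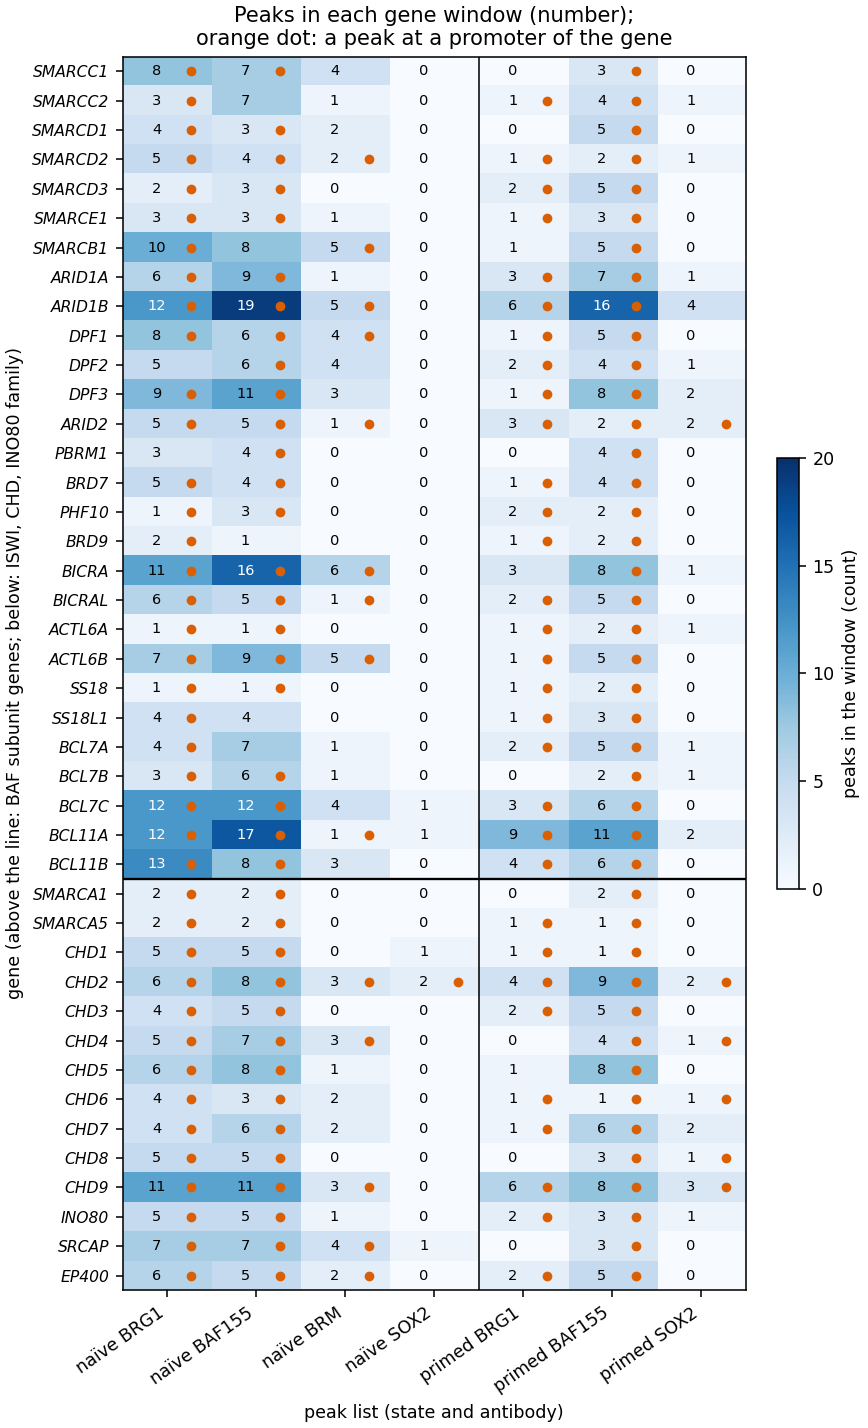
Number of peaks in the window of each of the 42 genes (rows) for the 7 peak lists (columns), with darker blue for more peaks and an orange dot where at least 1 peak lay within 1 kb of a transcript start. Each row has a dot for primed BAF155, 40 for naïve BRG1 and 31 for primed BRG1, and ARID1B holds the most peaks (19 of naïve BAF155).

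The promoter peaks were not equally strong in both states. When only peaks with a −log10 q-value of at least 3 were kept, 34 of 42 genes (81%, interval 65.9 to 91.4%) kept a primed BAF promoter peak, against 40% of all genes. Under the same limit 16 of 42 (38.1%, interval 23.6 to 54.4%) kept a naïve BAF promoter peak, against 31.4% of all genes, so the naïve share lay near the background. The median fold enrichment over the input of the strongest primed BAF155 promoter peak was 3.51 over the 42 genes and 3.34 over the 14314 genes with such a peak. As percentiles within the list, the medians were 62.8 and 53.6. Those peaks were also wider, with a median of 1542 bp against 1068 bp. These values, and the shares under the q-value limit, take any start of a gene. Remodeller genes have a median of 13 starts against 5 for all genes, which gives more chances of a strong peak. The part of this in these values was not tested. For naïve BAF155 the median percentile was 28.6 over the 23 BAF subunit genes with a promoter peak, 65.7 over the 14 other remodeller genes and 51.7 over all genes with one. By median, the BAF subunit genes thus had the weaker naïve BAF155 promoter peaks of both groups and, in primed cells, the stronger ones (65.9 and 58.4). The naïve BAF155 percentiles ranged from 0.472 to 95.1 in BAF subunit genes and from 4.94 to 81.7 in the others. BRG1 showed no such split, with medians of 54.5 and 53.4 in naïve cells and 53.1 and 52.4 in primed cells. The contrast is therefore limited to BAF155.

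Promoters of these genes are CpG-rich. Promoter sequences were found in RefSeq (GRCh38.p14) for 35 of the 42 genes, from 250 bases before to 50 after a start, and the median ratio of observed to expected CpG was 0.874, against 0.767 for 15345 protein-coding genes. A ratio of at least 0.6 was found in 29 of 35 (82.9%), against 66.5% of all. Among 23 genes whose upstream 250 bases were covered by a primed BAF155 peak over at least 200 bases, the strongest and the weakest such peak lay at ACTL6B, the neuronal actin-like subunit, and at BCL7B. These promoters, chosen after their values were seen, are shown to compare sequences at both ends of the range of BAF155 signal, with each CpG in capitals. ACTL6B (chr7:100656449-100656698, minus strand, hg38) had a primed BAF155 fold of 7.22 and 16 CpG. BCL7B (chr7:73557237-73557486, minus strand, hg38) had a fold of 2.82 and 32 CpG.

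ACTL6B: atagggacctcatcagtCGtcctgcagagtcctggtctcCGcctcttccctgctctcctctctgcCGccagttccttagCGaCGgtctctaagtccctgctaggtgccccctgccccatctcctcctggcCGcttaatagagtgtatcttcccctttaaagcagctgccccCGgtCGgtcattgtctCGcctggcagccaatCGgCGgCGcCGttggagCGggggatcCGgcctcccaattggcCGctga

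BCL7B: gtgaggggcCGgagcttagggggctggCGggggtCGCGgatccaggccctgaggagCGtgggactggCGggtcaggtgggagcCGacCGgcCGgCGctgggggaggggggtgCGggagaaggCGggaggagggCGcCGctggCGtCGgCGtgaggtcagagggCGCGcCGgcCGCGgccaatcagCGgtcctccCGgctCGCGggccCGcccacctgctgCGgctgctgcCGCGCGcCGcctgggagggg

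In this pair the promoter with the higher BAF155 fold held fewer CpG dinucleotides. Both were picked by their fold, and nothing is read from them about the other promoters.

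In percentage points, the share of remodeller genes with BRG1 at a promoter stood further above the background in primed than in naïve cells. The naïve share, 95.2% over 65.3%, was near the highest possible value, so this order depends on the measure. A naïve BRG1 promoter peak was present at 40 of 42 genes (65.3% of all genes), with DPF2 and PBRM1 the exceptions. A primed BRG1 promoter peak was present at 31 of 42 (73.8%, interval 58 to 86.1%; 33.3% of all genes), made up of 22 of 28 BAF subunit genes and 9 of 14 others. The 11 genes without one were SMARCC1, SMARCD1, SMARCB1, PBRM1, BICRA, BCL7B, SMARCA1, CHD4, CHD5, CHD8 and SRCAP. At the main transcript start alone the primed count was 27 of 42 (64.3%), against 29.2% of all genes. Partner genes lay between, with 22 of 40 (55%).

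The primed BRG1 list is shorter than the naïve one, so both were also cut to the 15611 peaks of lowest q-value. The naïve BRG1 promoter count then fell to 13 of 42 (31%, interval 17.6 to 47.1%; 20.9% of all genes), while the primed count stayed at 31 because its list was already of that length. By this measure the order of the states turned round: the top naïve BRG1 peaks were at fewer of these promoters than the primed ones, in the BAF subunit genes (9 against 22 of 28) and in the others (4 against 9 of 14). Within the windows, 44 of 74 primed BRG1 peaks (59.5%) lay at a promoter of the gene itself, against 63 of 237 naïve BRG1 peaks (26.6%). The matching shares of the whole lists were not counted. The antibody, input and list length all belong to 1 library per state, so library and state cannot be told apart.

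**Figure D2:**
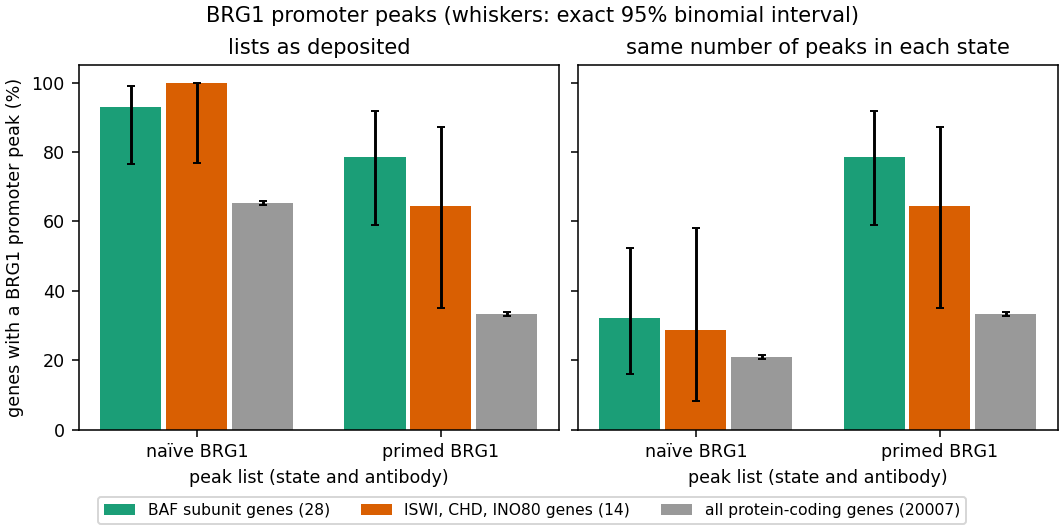
Percentage of BAF subunit genes, other remodeller genes and all protein-coding genes with a BRG1 promoter peak, from the lists as deposited (left) and with the same number of peaks per state (right), with exact 95% binomial intervals as whiskers. In the right panel the naïve shares are 32.1, 28.6 and 20.9% and the primed shares 78.6, 64.3 and 33.3%.

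BAF155 gave promoter peaks at nearly all of these genes. In naïve cells 37 of 42 had one (65.4% of all genes), and the 5 without were all BAF subunit genes: SMARCC2, SMARCB1, BRD9, SS18L1 and BCL7A. In primed cells 42 of 42 had one (71.5% of all genes). All 14 ISWI, CHD and INO80 family genes had both naïve BRG1 and naïve BAF155 at a promoter, so the BAF subunit genes were in no list of BRG1 or BAF155 alone more often occupied than the other group except primed BRG1 (78.6 against 64.3%), where the intervals of 59 to 91.7% and 35.1 to 87.2% overlap.

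BRM was at fewer promoters, but its list was shorter (17413 peaks, against 57884 for naïve BRG1). Cut to its 15611 peaks of lowest q-value, naïve BRG1 had a promoter peak at 13 of 42 genes. A lower frequency of BRM and its shorter list cannot be told apart. A naïve BRM promoter peak was present at 14 of 42 genes (33.3%, interval 19.6 to 49.5%; 21.7% of all genes), at 9 of 28 BAF subunit genes and 5 of 14 others. The BAF subunit genes were SMARCD2, SMARCB1, ARID1B, DPF1, ARID2, BICRA, BICRAL, ACTL6B and BCL11A, and the others were CHD2, CHD4, CHD9, SRCAP and EP400. At 13 of 42 genes BRG1, BAF155 and BRM all had a naïve promoter peak (20.8% of all genes), SMARCB1 being the 1 BRM promoter without BAF155. Among stronger peaks the count was not above the background: 1 of 42 (2.38%) at a −log10 q-value of at least 3, against 4.4% of all genes, and 0 of 42 at a fold of at least 4, against 2.29%. With the main transcript start alone BRM was at 9 of 42 (21.4%), against 16.3% of all genes, within the interval of 10.3 to 36.8%. In the wider window 29 of 42 genes held a BRM peak (54.3% of all genes). The 13 without one were SMARCD3, PBRM1, BRD7, PHF10, BRD9, ACTL6A, SS18, SS18L1, SMARCA1, SMARCA5, CHD1, CHD3 and CHD8.

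BRM followed BAF regions of the naïve state. Of 76 BRM peaks in the windows, 73 (96.1%) lay in a naïve BAF region, against 94.3% of the whole BRM list. BRM was at 45 of 139 common regions (32.4%), 24 of 165 naïve-only regions (14.5%) and 0 of 53 primed-only regions, which allows up to 6.72% (upper exact 95% limit). Over the whole genome these shares were 32, 14.2 and 0.356%, close to those in the windows of remodeller genes.

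**Figure D3:**
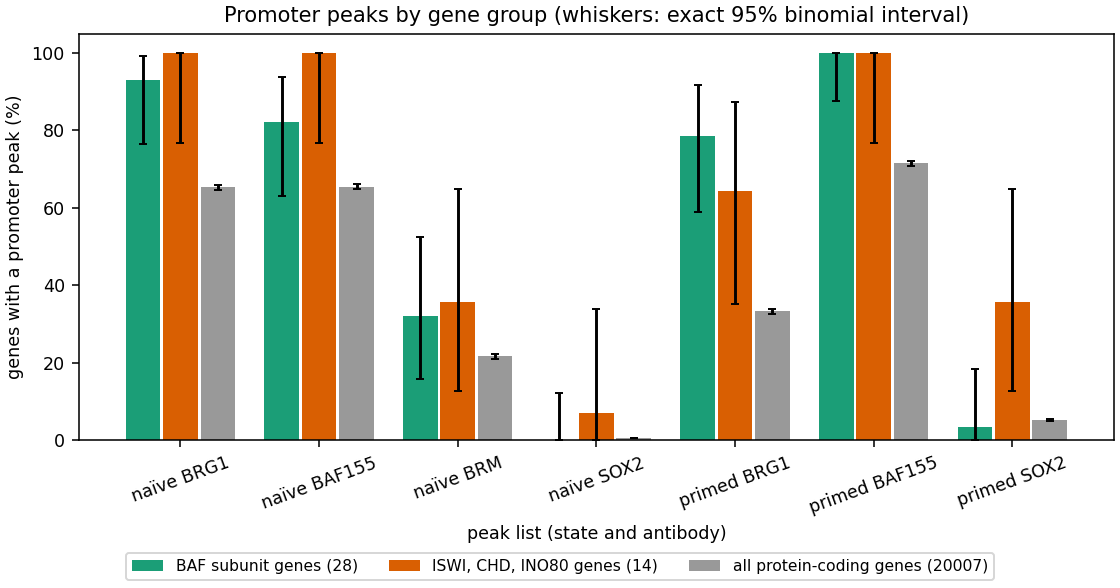
Percentage of genes with a promoter peak in each of the 7 lists for the 28 BAF subunit genes, the 14 other remodeller genes and all 20007 protein-coding genes, with exact 95% binomial intervals as whiskers. Both remodeller groups lie above all genes for BRG1 and BAF155 in each state, and primed SOX2 stands at 35.7% in the other remodeller genes and 3.57% in the BAF subunit genes.

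In the full lists the naïve state had more BAF regions of its own. The windows held 139 common, 165 naïve-only and 53 primed-only regions. Naïve-only regions outnumbered primed-only ones at 32 of 42 genes (56% of all genes), 22 of 28 BAF subunit genes and 10 of 14 others. The reverse held at 4 of 42 (21.9% of all genes), namely SMARCD1, SMARCD3, ACTL6A and SS18, all BAF subunit genes, and 6 genes had as many of each. With equal list lengths the counts were 26 of 42 with more naïve-only regions (42.6% of all genes) and 12 of 42 with more primed-only regions (32.1% of all genes). Among stronger peaks the order turned round: 13 genes had more naïve-only and 16 more primed-only regions at a −log10 q-value of at least 3, and 4 and 16 at a fold of at least 4. Shares of all genes were not counted for these calls under these limits. At a fold of at least 4, a BAF promoter peak was kept at 4.19% of all genes in naïve and 11.9% in primed cells. The change of order is therefore not read as particular to these genes.

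In these windows common regions lay at promoters more often than state-specific ones did. The shares were not counted over all genes, so they are not read as particular to remodeller genes. Of the 139 common regions 55 (39.6%) were at a promoter of the gene itself and 33 (23.7%) at that of another gene. Of the 165 naïve-only regions 8 (4.85%) were at the gene's own promoter, 76 (46.1%) in its introns and 64 (38.8%) in the flanks. Of the 53 primed-only regions 7 (13.2%) were at its own promoter and 31 (58.5%) in introns.

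**Figure D4:**
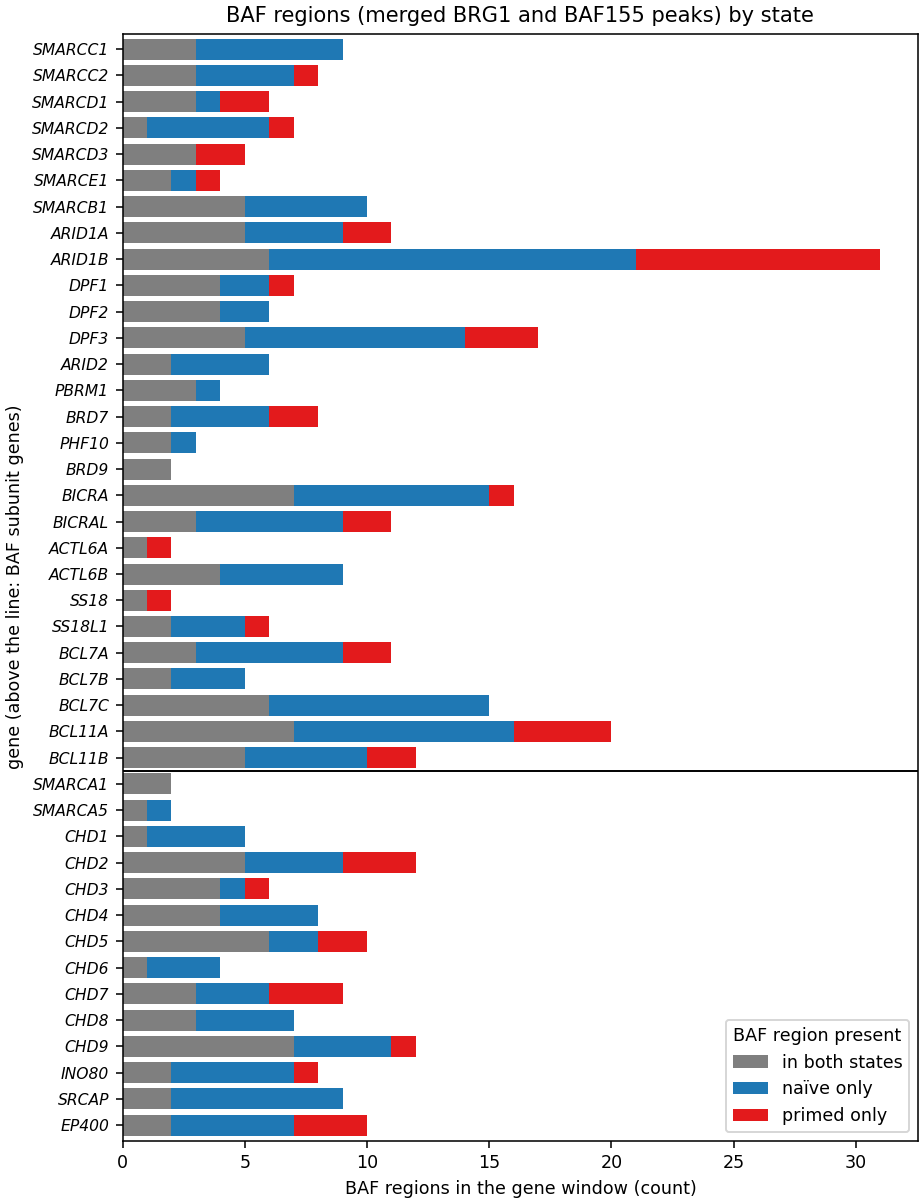
Number of BAF regions in the window of each gene, stacked as regions present in both states (grey), in naïve cells only (blue) and in primed cells only (red). BCL7C has 9 naïve-only and 0 primed-only regions, and SMARCD3 has 0 and 2.

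Counts per gene follow gene length, so densities were also compared. A promoter peak, which nearly all of these genes had, raises the density more in a short window. Densities therefore do not remove gene length, and its part in them was not tested. The median length was 46.9 kb for the BAF subunit genes, 77.8 kb for the other remodeller genes and 27.4 kb for all genes. Per 100 kb of window, the median number of peaks in BAF subunit genes, other remodeller genes and all genes was 5.24, 3.92 and 3.76 for naïve BAF155. For primed BAF155 it was 4.19, 2.66 and 3.19. It was 4.79, 3.51 and 3.44 for naïve BRG1, and 1.55, 0.857 and 0.598 for primed BRG1. Of these gene sets the BAF subunit genes had the highest median in each list. The other remodeller genes were below all genes in primed BAF155. The 40 partner genes had medians of 5.58 and 3.99 for naïve and primed BAF155, and 4.11 and 1.15 for naïve and primed BRG1. The 11 NuRD partners among them had 7.96, 4.22, 7.36 and 1.41, above the BAF subunit genes in all but primed BRG1. A high density is therefore not read as particular to BAF subunit genes. Among the 42 genes the ranges were broad, as the naïve BAF155 density ran from 0.87 at SS18 to 16.9 at ACTL6B. The counts per gene that follow are from the full lists, where the naïve BRG1 list is the longer. With equal list lengths 10 of 42 genes had more naïve than primed BRG1 peaks (27.6% of all genes). More primed than naïve BRG1 peaks were then found at 19 of 42 (28% of all genes).

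Among the core scaffold genes, SMARCC1 is the gene of the BAF155 antigen. Its window held 8 naïve BRG1, 7 naïve BAF155 and 4 naïve BRM peaks, against 0 primed BRG1 and 3 primed BAF155 peaks, and no SOX2 peak in either state. With equal list lengths it had 0 BRG1 peaks in either state, so the BRG1 contrast was not kept. Of its BAF regions in the full lists 6 were naïve-only, 3 were common and 0 were primed-only. The promoter peak of SMARCC1 had a fold of 2.52 for naïve BRG1 (the 8.44th percentile of the list), 2.55 for naïve BAF155 (12.9th) and 3.06 for primed BAF155 (34.4th), so the gene of the scaffold subunit carried its own product at below-median strength in both states. SMARCC2 (BAF170, the paralogous scaffold) had 3 naïve BRG1, 7 naïve BAF155 and 1 naïve BRM peaks, and 1 primed BRG1, 4 primed BAF155 and 1 primed SOX2 peaks. The SOX2 peak lay at the promoter of MYL6 and MYL6B, 16.7 kb from the nearest SMARCC2 start.

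The BAF60 genes were split. SMARCD1 had 4 naïve BRG1, 3 naïve BAF155 and 2 naïve BRM peaks, and 0 primed BRG1 and 5 primed BAF155 peaks, with 1 naïve-only against 2 primed-only regions. SMARCD3, the form known from heart and muscle, had 2 naïve BRG1, 3 naïve BAF155 and 0 BRM peaks, and 2 primed BRG1 and 5 primed BAF155 peaks, with 0 naïve-only against 2 primed-only regions. SMARCD2 had 5 naïve BRG1, 4 naïve BAF155 and 2 naïve BRM peaks, and 1 primed BRG1, 2 primed BAF155 and 1 primed SOX2 peaks. SMARCD2 thus went the other way, with 5 naïve-only regions against 1 primed-only. SMARCB1, which binds the acidic patch of the nucleosome, had 5 naïve-only and 0 primed-only regions, and SMARCE1, a DNA-binding subunit, had 1 of each.

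In the cBAF genes, ARID1B had the most regions of all 42 genes: 12 naïve BRG1, 19 naïve BAF155 and 5 naïve BRM peaks, and 6 primed BRG1, 16 primed BAF155 and 4 primed SOX2 peaks. It is also the longest gene (435 kb), and its naïve BAF155 density of 4 per 100 kb was below the group median. With equal lists ARID1B had 2 naïve and 6 primed BRG1 peaks. ARID1A, the other large subunit that defines cBAF, had 6 naïve BRG1, 9 naïve BAF155 and 1 naïve BRM peaks, and 3 primed BRG1, 7 primed BAF155 and 1 primed SOX2 peaks. Of the PHD finger genes, DPF3 had 9 naïve BRG1, 11 naïve BAF155 and 3 naïve BRM peaks, and 1 primed BRG1, 8 primed BAF155 and 2 primed SOX2 peaks. DPF3 was among the 5 genes with the largest naïve-only excess (9 against 3 regions). DPF2, the broadly expressed form, had 5 naïve BRG1, 6 naïve BAF155 and 4 naïve BRM peaks, and 2 primed BRG1, 4 primed BAF155 and 1 primed SOX2 peaks. DPF1, a neuronal form, had 2 naïve-only against 1 primed-only region.

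The PBAF genes were the sparsest of the BAF groups in naïve cells, with a median naïve BAF155 density of 3.24 per 100 kb. ARID2, which defines PBAF, had 5 naïve BRG1, 5 naïve BAF155 and 1 naïve BRM peaks, and 3 primed BRG1, 2 primed BAF155 and 2 primed SOX2 peaks. PBRM1, the polybromo subunit, PHF10 and BRD7 had 1, 1 and 4 naïve-only regions and 0, 0 and 2 primed-only regions. Among the ncBAF genes, BICRA (GLTSCR1) had 11 naïve BRG1, 16 naïve BAF155 and 6 naïve BRM peaks, and 3 primed BRG1, 8 primed BAF155 and 1 primed SOX2 peaks. Its 8 naïve-only regions against 1 primed-only stood beside 6 against 2 at its paralogue BICRAL and 0 of either at BRD9, so the ncBAF genes did not share a pattern.

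The ATPase module genes and other associated BAF genes went both ways. BCL7C had the largest naïve-only excess of the 42 genes (9 against 0 regions), with 12 naïve BRG1, 12 naïve BAF155, 4 naïve BRM and 1 naïve SOX2 peaks, and 3 primed BRG1, 6 primed BAF155 and 0 primed SOX2 peaks. ACTL6A, the actin-like subunit of dividing cells, had 1 naïve BRG1 and 1 naïve BAF155 peak, and 1 primed BRG1, 2 primed BAF155 and 1 primed SOX2 peaks. SS18, a subunit known from its fusion in synovial sarcoma, had 1 naïve BRG1 and 1 naïve BAF155 peak, and 1 primed BRG1 and 2 primed BAF155 peaks. ACTL6A and SS18 therefore each had 1 primed-only region and no naïve-only region, on 1 peak more in the primed list. Their neuronal paralogues ACTL6B and SS18L1 had 5 and 3 naïve-only regions against 0 and 1 primed-only.

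BCL7A had 4 naïve BRG1, 7 naïve BAF155 and 1 naïve BRM peaks, and 2 primed BRG1, 5 primed BAF155 and 1 primed SOX2 peaks. BCL7B had 3 naïve BRG1, 6 naïve BAF155 and 1 naïve BRM peaks, and 0 primed BRG1, 2 primed BAF155 and 1 primed SOX2 peaks. All 3 BCL7 genes thus had more BAF155 peaks in naïve cells. Their BRG1 counts depended on list length: with equal lists BCL7A had 0 naïve and 2 primed BRG1 peaks, BCL7B had 0 of either, and BCL7C had 5 naïve and 3 primed. BCL11A, a zinc finger factor of blood and neural development, had 12 naïve BRG1, 17 naïve BAF155, 1 naïve BRM and 1 naïve SOX2 peaks, and 9 primed BRG1, 11 primed BAF155 and 2 primed SOX2 peaks. It held the most primed BRG1 peaks of all 42 genes, and 5 of these 9 lay at a promoter. With equal lists BCL11A had 0 naïve and 9 primed BRG1 peaks. BCL11B, its paralogue of T cell development, had 5 naïve-only and 2 primed-only regions.

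The 8 genes whose products are known mainly from differentiated tissue (DPF1, DPF3, ACTL6B, SS18L1, BCL11A, BCL11B, SMARCD3 and CHD5) also carried BAF. All 8 had a BAF promoter peak in both states, against 65.5% of all genes, and 7 of 8 a primed BRG1 promoter peak, against 33.3%. With the main transcript start alone the primed BRG1 count was 4 of 8 (50%), against 67.6% of the other 34 genes and 29.2% of all genes. Their median primed BAF155 density was 6.53 per 100 kb, against 3.32 for the other 34 genes and 3.19 for all genes. Their naïve BAF155 median was 6.17, against 4.37 and 3.76.

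Among the other remodellers, the ISWI ATPase genes SMARCA1 (SNF2L) and SMARCA5 (SNF2H) were among the least occupied, each with 2 naïve BRG1 and 2 naïve BAF155 peaks and no BRM or SOX2 peak. In the INO80 family, SRCAP, which deposits the histone variant H2A.Z, had 7 naïve BRG1, 7 naïve BAF155, 4 naïve BRM and 1 naïve SOX2 peaks, and 0 primed BRG1, 3 primed BAF155 and 0 primed SOX2 peaks. Its 7 naïve-only against 0 primed-only regions placed it among the 5 genes with the largest naïve-only excess, the only one of these outside BAF. INO80 had 5 naïve BRG1, 5 naïve BAF155 and 1 naïve BRM peaks, and 2 primed BRG1, 3 primed BAF155 and 1 primed SOX2 peaks. EP400 had 5 naïve-only and 3 primed-only regions.

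In the CHD family, CHD9 had 11 naïve BRG1, 11 naïve BAF155 and 3 naïve BRM peaks, and 6 primed BRG1, 8 primed BAF155 and 3 primed SOX2 peaks. CHD2, mutated in childhood epilepsy, had 6 naïve BRG1, 8 naïve BAF155, 3 naïve BRM and 2 naïve SOX2 peaks, and 4 primed BRG1, 9 primed BAF155 and 2 primed SOX2 peaks. CHD7, mutated in CHARGE syndrome, had 4 naïve BRG1, 6 naïve BAF155 and 2 naïve BRM peaks, and 1 primed BRG1, 6 primed BAF155 and 2 primed SOX2 peaks. These were the CHD genes with SOX2 at more than 1 site in a state. CHD4, the ATPase of the NuRD complex, had 5 naïve BRG1, 7 naïve BAF155 and 3 naïve BRM peaks, and 0 primed BRG1, 4 primed BAF155 and 1 primed SOX2 peaks. CHD8, known from autism, had 5 naïve BRG1 and 5 naïve BAF155 peaks, and 0 primed BRG1, 3 primed BAF155 and 1 primed SOX2 peaks. CHD6 had 4 naïve BRG1, 3 naïve BAF155 and 2 naïve BRM peaks, and 1 primed BRG1, 1 primed BAF155 and 1 primed SOX2 peaks. CHD1 had 5 naïve BRG1, 5 naïve BAF155 and 1 naïve SOX2 peaks, and 1 primed BRG1, 1 primed BAF155 and 0 primed SOX2 peaks. The NuRD ATPase paralogues CHD3 and CHD5 had no SOX2 peak and as many naïve-only as primed-only regions (1 and 2 of each). With equal lists CHD9 had 3 naïve and 6 primed BRG1 peaks, CHD2 had 1 and 4, CHD1 had 2 and 1, and CHD4 and CHD8 had 0 of either.

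The ATPase genes of BAF itself are not among the 42. SMARCA4 (BRG1) had 14 naïve and 2 primed BRG1 peaks, and 15 naïve-only against 0 primed-only regions. SMARCA2 (BRM) had 7 naïve and 3 primed BRG1 peaks, and 9 against 2 regions.

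SOX2 is a high mobility group transcription factor that works with OCT4 in pluripotent cells. A primed SOX2 peak was present in the window of 19 of 42 genes (45.2%, interval 29.8 to 61.3%; 26.2% of all genes), 12 of 28 BAF subunit genes and 7 of 14 others. A naïve SOX2 peak was present at 5 of 42 (11.9%, interval 3.98 to 25.6%; 7.55% of all genes), namely SRCAP, CHD2, CHD1, BCL7C and BCL11A. The naïve list has fewer peaks, and cutting both lists to the 1940 peaks of lowest q-value left 3 of 42 genes with a primed SOX2 peak (6.54% of all genes): ARID1B, CHD7 and CHD9. The remodeller genes had a median length of 65.8 kb, against 27.4 kb for all genes, and the part of window length in these counts was not tested.

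At promoters the groups differed in count. A primed SOX2 promoter peak was present at 6 of 42 genes (14.3%; 5.24% of all genes), which were ARID2 among the 28 BAF subunit genes and CHD2, CHD4, CHD6, CHD8 and CHD9 among the 14 others (35.7%, interval 12.8 to 64.9%). A naïve SOX2 promoter peak was present at 1 of 42, CHD2 (0.585% of all genes). The CHD genes have a median of 19 annotated starts, and the BAF subunit genes 13. At the main transcript start alone only ARID2 and CHD6 kept a primed SOX2 promoter peak, 2 of 42 (4.76%) against 2.87% of all genes, and no gene kept the naïve one.

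The 3 sites of highest fold in each state, leaving out those that overlap an exon and the CHD7 site, whose sequence is not printed here, are printed to show what SOX2 occupied. Each line gives the 200 bases of the plus strand of hg38 around the peak midpoint, with matches to the SOX core (CATTGT or CTTTGT, either strand) and to the octamer ATGCAAAT (either strand), to which OCT4 binds, in capitals. The first 3 are naïve peaks and the last 3 primed peaks.

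SRCAP, chr16:30678200-30678399: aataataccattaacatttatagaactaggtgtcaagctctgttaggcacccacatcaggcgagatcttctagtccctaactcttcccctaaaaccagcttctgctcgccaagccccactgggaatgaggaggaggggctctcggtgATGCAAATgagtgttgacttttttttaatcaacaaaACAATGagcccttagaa

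CHD2, chr15:92915881-92916080: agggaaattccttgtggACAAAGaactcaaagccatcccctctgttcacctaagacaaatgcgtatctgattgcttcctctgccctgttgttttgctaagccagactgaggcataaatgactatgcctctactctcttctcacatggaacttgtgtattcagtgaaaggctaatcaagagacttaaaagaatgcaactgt

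CHD2, chr15:92914185-92914384: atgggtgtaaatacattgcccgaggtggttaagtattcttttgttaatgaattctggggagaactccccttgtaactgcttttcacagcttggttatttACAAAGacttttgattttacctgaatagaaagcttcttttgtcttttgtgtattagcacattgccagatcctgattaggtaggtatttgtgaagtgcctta

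CHD9, chr16:53098573-53098772: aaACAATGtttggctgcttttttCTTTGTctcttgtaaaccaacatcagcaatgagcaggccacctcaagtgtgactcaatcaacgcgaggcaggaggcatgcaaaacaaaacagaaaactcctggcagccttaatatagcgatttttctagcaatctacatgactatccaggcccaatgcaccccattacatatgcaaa

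ARID1B, chr6:157089397-157089596: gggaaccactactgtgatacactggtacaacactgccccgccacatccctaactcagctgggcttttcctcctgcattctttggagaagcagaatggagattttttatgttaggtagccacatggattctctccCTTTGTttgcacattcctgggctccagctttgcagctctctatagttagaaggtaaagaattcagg

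ARID2, chr12:45728799-45728998: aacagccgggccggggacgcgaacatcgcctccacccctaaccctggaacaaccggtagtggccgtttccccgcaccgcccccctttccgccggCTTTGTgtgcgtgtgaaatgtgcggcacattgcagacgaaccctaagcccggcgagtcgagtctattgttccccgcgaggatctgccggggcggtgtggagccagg

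Each printed site held at least 1 SOX core, CHD9 held 2, and SRCAP also held the octamer. The CHD7 site (fold 11.4), which ranked among the 3 highest of the primed sites, held 2 SOX cores and 1 octamer. The SRCAP site was the strongest SOX2 peak in any of the windows, with a fold of 20.8 (the 98.6th percentile of the naïve list). It lay in the flank 19.9 kb upstream of SRCAP, within a common BAF region and a BRM peak, and overlapped a primed SOX2 peak whose midpoint fell outside the window. The CHD2 sites had folds of 10.8, in an intron 1.01 kb from the nearest start, and 10.7, within 1 kb of a secondary start. The latter overlapped a primed SOX2 peak with a fold of 5.28, the 1 SOX2 site counted for the same gene in both states. CHD9 (fold 11.9), ARID1B (10.8) and ARID2 (9.24) lay near a secondary start, in an intron and at the main start, respectively.

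Over all sites, 4 of the 6 naïve and 17 of the 29 primed SOX2 peaks in the windows held a SOX core (66.7 and 58.6%), against 59 and 59.5% of the whole lists. Windows of the same length at 2 kb to either side of each listed peak held it in 23.6 and 24.7%. The octamer was in 2 of the 6 naïve (33.3%) and 3 of the 29 primed sites (10.3%), against 13.4 and 8.89% of the lists and 1.39 and 1.79% of the windows to either side. The SOX2 sites at remodeller genes held the SOX core at shares near those of the whole lists.

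**Figure D5:**
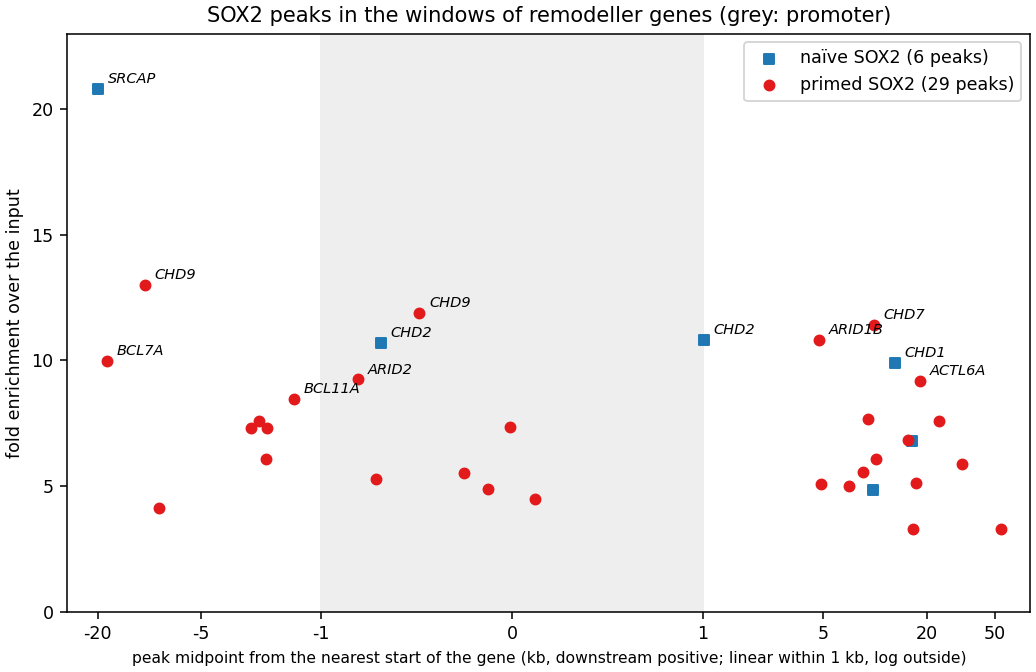
Fold enrichment over the input of the 6 naïve (blue squares) and 29 primed (red circles) SOX2 peaks in the windows, against the distance of the peak midpoint from the nearest transcript start of the gene in kb (symmetric log axis), with genes of a fold of at least 8 named. SRCAP stands highest at 20.8, and 7 primed peaks and 1 naïve peak lie in the grey promoter zone.

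SOX2 peaks in the windows lay in BAF regions about as often as over the whole lists. All 6 naïve SOX2 peaks lay in a naïve BAF region (93% of the whole list), and 28 of the 29 primed ones in a primed BAF region (88.4% of the whole list). The exception was the SMARCD2 window, whose SOX2 peak (fold 5.02) lay at the promoter of FTSJ3 and PSMC5. By class, 20 of the 29 peaks of primed SOX2 (69%, interval 49.2 to 84.7%) were within a common BAF region, against 44.3% of the list. In a primed-only region were 8 of 29 (27.6%, interval 12.7 to 47.2%), against 44.6% of the list, which lies within the interval. By direct overlap, 16 of the 29 (55.2%, interval 35.7 to 73.6%) met a naïve BAF peak region, against 41.6% of the list, which lies within the interval. A naïve SOX2 peak overlapped 1 of the 29. By place, 7 of the 29 lay at a promoter of the gene itself, 6 at that of another gene, 10 in an intron and 6 in the flanks. The 6 at another gene's promoter were all in windows of BAF subunit genes (BCL7A, ACTL6A, DPF2, BCL7B, SMARCD2 and SMARCC2), so these peaks cannot be assigned to the BAF subunit gene alone.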

How the data were processed

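ChIP-seq was performed by the authors in naïve and primed WIBR3 hESCs. Per the labels, SOX2 libraries were sequenced as paired-end reads, and BRG1, BRM and BAF155 libraries as single-end reads in another facility. The study's methods state trimming with trim_galore, mapping to hg38 with bowtie2, removal of duplicates, and peak calling with MACS2, narrow for SOX2 and broad for the BAF subunits, with the input as control. The submitters' processing notes name Bowtie2 2.3.4, SAMtools 0.1.19 and FastQC 0.10.1. Whether libraries were pooled is not given in the sources used here. Reads were mapped to the human genome alone, although the cells grew on mouse feeder cells.

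The deposited lists give peak coordinates and, except for primed BRM and the second SOX2 list of each state, 4 values by the authors' peak caller: a score, the linear ratio (fold) of signal to input, and p-value and q-value as −log10. The BAF lists reached down to a −log10 q-value of about 1. Of 14 samples, 4 were inputs and were not analysed here.

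Peaks of the 22 autosomes and of X and Y were assigned by midpoint to protein-coding genes of GENCODE release 44 in Python 3.11.15 with numpy and scipy, and regions were overlapped with bedtools. Counting was tested on simulated peaks. With 1 library per group, no test was run. Shares carry exact Clopper-Pearson 95% intervals, which cover counting error only, and members of the list are not replicates. The 42 genes, the marker lists and the partner lists were chosen with earlier results of these data known. All 42 genes are accounted for, and values in each list are given for SMARCC1, for genes with a SOX2 peak in the window, and for those with the largest excess of naïve-only or primed-only regions (up to 5 each way). Alternatives were stricter q-values or fold, equal list lengths, other promoter and window sizes, the main transcript start, any-base overlap, a stricter overlap of regions, and leaving out either SOX2 list.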

Additional observations from a re-analysis of the deposited data

How the results depend on the processing

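Keeping peaks with a −log10 q-value of at least 3 left 16 of 42 genes with a naïve BAF promoter peak (31.4% of all genes) and 1 with a naïve BRM promoter peak (4.4% of all genes). It gave 13 genes with more naïve-only and 16 with more primed-only BAF regions. A fold of at least 4 left 2 genes with a naïve BAF promoter peak (4.76%, against 4.19% of all genes) and 13 with a primed one (31%, against 11.9%). It left 0 with a BRM promoter peak (2.29% of all genes), and gave 4 with more naïve-only and 16 with more primed-only regions. Under both limits the excess of naïve-only regions at these genes was therefore lost, and the matching shares of all genes were not counted. Equal list lengths left 3 genes with a primed SOX2 peak and gave 12 with more primed-only regions. BRM promoter peaks were at 9 genes within 500 bases of a start and at 9 with the main transcript start alone (16.3% of all genes). In gene bodies without flanks, 1 gene held a naïve and 9 a primed SOX2 peak. Shares of all genes are not given for the 500-base promoters or the gene bodies, so these counts are not set against a background. The share of BAF subunit genes with a BRM promoter peak minus that of the other remodeller genes was -3.57 percentage points, and 3.57 with a −log10 q-value of at least 3, which rests on 1 gene. The cause of these shifts was not tested. Of 76 alternative values, 52 stayed close to the main ones (counts within 1.5 times). Leaving out either SOX2 list changed nothing (5 and 19 genes), since both lists of a state hold the same coordinates. No paired analysis was possible because each group had 1 independent list and no result came from a test. Precision is limited by 1 library per group, so list length, input and state cannot be told apart.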
